A study of Mus musculus with 15 samples.

Results

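The genes described here encode the core machinery of pre-mRNA splicing and the RNA-binding proteins that coat nascent transcripts, and they were followed through 15 single Tomato+ cells of white fat tissue. They were taken by name: every gene of the expression table whose symbol begins with Srsf, Hnrnp, Sf3a, Sf3b, Snrp, Prpf or U2af, or with Lsm and a digit. This gave 77 genes of the 8446 rows, in 7 classes: 12 Sm and snRNP proteins, 11 LSm proteins, 8 SF3a and SF3b subunits, 3 U2AF subunits, 13 Prpf proteins, 10 SR proteins and 20 hnRNP proteins. All 77 identifiers and symbols matched the reference gene names. Among the 12 Sm and snRNP members, Snrpert is annotated as a processed pseudogene rather than a coding gene, as described below.

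The cells came from the inguinal white fat, the subcutaneous depot of the groin, of adult C57BL/6 mice of the genotype Prrx1-CreERT;Tomato. In these mice a Cre recombinase that needs tamoxifen to act is driven by Prrx1, a homeobox gene of limb and skeletal mesenchyme, and leaves Tomato fluorescence in the cells where it acted. Tamoxifen was injected at 2 mg per 30 g of body weight on each of 3 days. The minced fat was digested with collagenase, Tomato+ cells were sorted, and single cells were picked by eye under fluorescence and made into 1 library each. All 15 cells, numbered 1 to 15, share genotype, age class and treatment and form 1 group, so that the design holds no contrast between conditions. No label ties a cell to a mouse, so the group counts as 1 sample, and the cells are described with no p-value.

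Splicing removes introns in steps carried out by small nuclear ribonucleoproteins (snRNPs), particles of a small nuclear RNA with a ring of Sm or LSm proteins and further proteins of their own. The U1 particle marks the 5′ splice site, U2AF and the U2 particle with its SF3a and SF3b subunits mark the 3′ splice site and the branch point, and the tri-snRNP with its Prpf proteins brings in the catalytic parts. SR proteins and hnRNP proteins bind the transcript itself and shift the choice of splice sites, often in opposite directions. Nearly every nucleated cell needs this machinery, so its genes are usually counted among the broadly expressed ones.

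Levels are given as log2(FPKM + 1), where FPKM is the number of fragments per transcript length and sequencing depth, and a gene was counted as detected in a cell at 1 FPKM or more, which is 1 on this scale. The columns had been set to the same distribution, so every cell counts 4369 rows, or 51.7%, as detected, and a value tells where a gene ranks within its cell. The library kit reads the 3′ end while FPKM divides by transcript length, so long genes are understated. Levels of different genes are therefore also given with the length multiplied back. Read counts and depth are unknown for these libraries, so a gene under 1 FPKM was not detected, which does not show that it was absent.

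The splicing genes were detected in more cells than most rows of the table. Of the 77 genes 22, or 28.6%, were detected in all 15 cells, where the share over all rows was 12.1%. In 8 or more cells 63 genes were detected, or 81.8% of them, against 46.8% of all rows. Every splicing gene was detected in 3 or more cells, as were 87.9% of all rows, while 12.1% of all rows were seen in 2 or fewer, and the sparsest, Srsf4, Prpf4 and Prpf40b, were each detected in 3. The table had been filtered by a rule that is not given in the sources used here, and these shares hold for the rows it kept.

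They were also higher. The median over genes of the mean level was 3.91 for the splicing genes and 1.89 over all rows, and 14 of the 77 lay among the highest 10% of rows by median. Of their 1155 values 63.4% reached 5 FPKM, against 40.5% of all values, and 22.7% were below 1 FPKM. At this higher threshold 11 genes, or 14.3%, were present in all 15 cells and 52, or 67.5%, in 8 or more, against 7.03% and 32.6% of all rows. Within a gene the cells still differed widely: 59 of the 77 genes had a range of more than 5 on the log2 scale. The share of all rows with such a range is not given here, so the count does not set these genes apart. Among those detected in 8 or more cells the median SD over cells was 2.14, against 2.2 for all such rows, and 61.9% of the splicing genes had a smaller SD than the running median of genes of like mean, against 55.5% of all such rows. The heat map of the genes by cell shows broad rows of high values for many Sm, SR and hnRNP genes. Most Prpf genes had few high cells, though Prpf4b reached 5 FPKM in 12. Sparse rows also lie in the SR and hnRNP classes, such as Srsf4, detected in 3 cells, and Hnrnpul2, detected in 5.

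**Figure D1:**
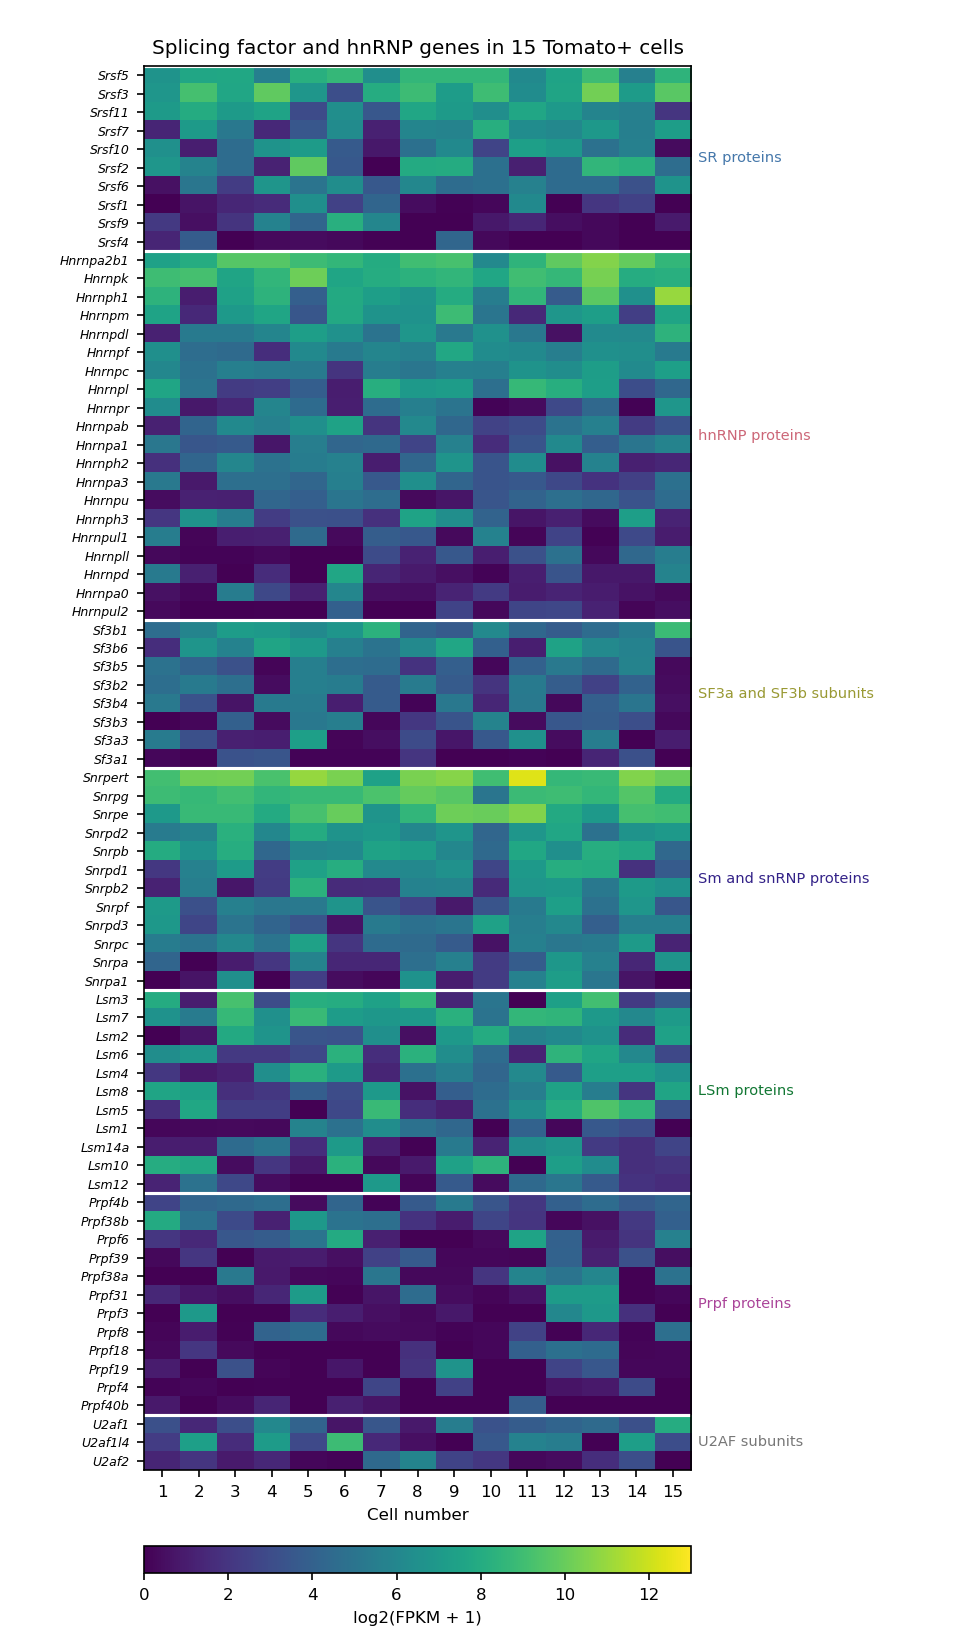
Level of 76 of the 77 splicing genes (rows, grouped by class and ordered by median) in each of the 15 cells (columns), as log2(FPKM + 1). The Sm and snRNP genes Snrpert, Snrpg and Snrpe and the hnRNP genes Hnrnpa2b1 and Hnrnpk are bright in nearly every cell. Of the 13 Prpf genes 4 were detected in 8 or more cells, against 46.8% of all rows.

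The Sm and snRNP class stood highest, with a mean of 5.89 ± 0.88 over cells (SD over 15 cells), between 4.43 in cell 10 and 7.28 in cell 12. All 12 of its genes were detected in 8 or more cells and 6 in all 15. Its transcripts are short, with a class median of 1555 nt for the longest transcript, and with the length multiplied back its median of 6.91 lay close to the 6.65 of the SR class and the 6.46 of the hnRNP class. Without that step the class medians were 5.83 for the Sm and snRNP class, 4.83 for the SR class and 4.33 for the hnRNP class. The pseudogene Snrpert, at 8.32 with the length multiplied back, is counted in the Sm and snRNP class and raises its values. The small lead of 6.91 over 6.65 therefore does not rank these classes. Without uncertain genes, Snrpert among them, and without multiplying back, the class means were 6.06 (Sm and snRNP), 5.46 (SR) and 4.56 (hnRNP).

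The member with the highest median of all 77 was Snrpert, which the annotation (GENCODE M21 on GRCm38) lists as a processed pseudogene, an intronless copy of the mRNA of Snrpe. Snrpe encodes Sm protein E. Snrpe spans chr1:133603871-133610291 on the minus strand. The copy lies at chr2:131322088-131322366, also on the minus strand, within an intron of Rnf24 and in the same orientation as that gene. The coding sequence of Snrpe and the matching sequence of Snrpert are 279 bases long and 98.9% identical, with 3 differences. A read from the coding sequence that covers none of these differences could come from either locus, and how such reads were assigned is not given in the sources used here.

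Snrpert ranged from 7.43 in cell 7 over a median of 10.16 to 12.36 in cell 11, and Snrpe from 6.75 in cell 7 over 8.75 to 10.52 in cell 11. Both were detected in all 15 cells, and their lowest and highest cells were the same. Snrpert was higher than Snrpe in 14 cells, with a median difference of 1.35 on the log2 scale, and cell 10 was the exception with 9.03 for Snrpert and 10.04 for Snrpe. The annotated transcript of Snrpert has 279 nt and the longest of Snrpe 669 nt. With these lengths multiplied back the median difference was 0.09, and Snrpert was higher in 9 cells. The levels of the copy and its parent are uncertain for this reason, and of the words of 50 bases in Snrpert 55.7% also occur in other genes.

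**Figure D2:**
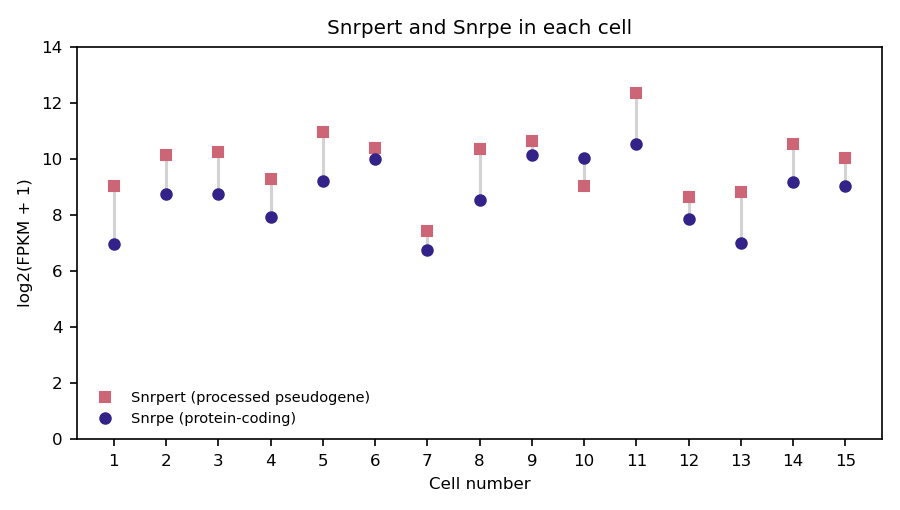
Level of Snrpert (squares) and Snrpe (circles) in each of the 15 cells, as log2(FPKM + 1), joined by a line within a cell. The squares lie above the circles in 14 cells, the exception being cell 10, and both genes have their highest value in cell 11 and their lowest in cell 7.

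The ring that Sm proteins form around U1, U2, U4 and U5 snRNA has 7 protein genes in this table, Snrpb, Snrpd1, Snrpd2, Snrpd3, Snrpe, Snrpf and Snrpg. All 7 were detected together in 13 cells, and 98.1% of their values reached 1 FPKM. The exceptions were single genes, Snrpd3 at 0.64 in cell 6 and Snrpf at 0.87 in cell 9. Exons of both overlap other genes, so their values are uncertain. Snrpg, Sm protein G, ran from 5.07 in cell 10 over a median of 8.84 to 9.91 in cell 8. Outside cell 10 it stayed at 7.95 or higher, which made it one of the steadier genes among the 77.

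Of the genes for proteins specific to one particle, Snrpc, Snrpa and Snrpa1 had lower medians than every ring gene. Snrpb2 lay above the ring genes Snrpd3 (5.06) and Snrpf (5.13). With the length multiplied back Snrpc, at 7.55, stood above Snrpb (7.38) and below Snrpe (8.17). Their SDs over cells ran from 1.96 (Snrpc) to 2.79 (Snrpa1), and those of the ring genes from 1.11 (Snrpd2) to 2.34 (Snrpd1). Snrpc and Snrpa, which belong to U1, had medians of 4.98 and 3.76 and were detected in 14 and 13 cells. Snrpb2, the U2 protein B″, had the widest range of the class, from 0.76 in cell 3 over a median of 5.57 to 8.32 in cell 5. Its cells fell into a set of 6 at 2.2 or lower and a set of 9 at 5.21 or higher, with none between. Snrpa1, the U2 protein A′ and partner of Snrpb2, had the lowest median of the class, 1.02. It was undetected in 7 cells and reached 7.22 in cell 12. Snrpa1 and Snrpa overlap other genes' exons, so their values are uncertain.

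LSm proteins form a like ring on U6 snRNA in the nucleus, Lsm2 to Lsm8, and a related ring with Lsm1 in place of Lsm8 takes part in mRNA decay in the cytoplasm. The class averaged 4.46 ± 0.92 over cells, lowest in cell 4 (3.38) and highest in cells 12 (6.28) and 13 (6.22). All 11 genes were detected in 8 or more cells, and Lsm6 and Lsm7 in all 15, where the shares over all rows were 46.8% and 12.1%. The 7 genes of the U6 ring were detected together in 10 cells, and the fewest seen in a cell were 5, in cells 2 and 8. Of their values 93.3% reached 1 FPKM.

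Lsm3 had the highest median of the class, 7.41, and ran from 0 in cell 11 to 9.2 in cell 3. It was at or above 7.41 in 8 cells and at or below 5.06 in the other 7. Lsm5 had the widest range, from 0 in cell 5 over a median of 3.32 to 9.4 in cell 13. Cells 2, 7, 12, 13 and 14 held it at 7.75 or higher, cell 11 at 6.42 and the remaining 9 cells at 4.82 or lower. Lsm12 had the lowest median, 1.9, and Lsm7 the narrowest spread of the class, from 4.95 in cell 10 to 8.8 in cell 5. Lsm10, which replaces a subunit in the U7 particle that processes histone mRNA, had a median of 2.08 and reached 8.39 in cell 10. Lsm14a, a protein of cytoplasmic RNA granules, had a median of 2.2, and the cytoplasmic Lsm1 had 3.12.

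SF3b holds the branch point within U2, and SF3a is its partner in that particle. This class averaged 3.47 ± 0.74 over cells. Its extremes were far apart, 1.85 in cell 15 and 5.3 in cell 5, while the other 13 cells lay between 2.88 and 4.06. The 6 SF3b genes were detected together in 5 cells, and 83.3% of their values reached 1 FPKM. Cell 15 showed 2 of the 6.

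Sf3b1, the large subunit that clamps the branch point helix, had the highest median of the class, 5.85, and was detected in all 15 cells. It ran from 3.71 in cell 9 to 8.87 in cell 15. The cell with the highest Sf3b1 was thus the one in which Sf3b2 (0.4), Sf3b3 (0.27), Sf3b4 (0.52) and Sf3b5 (0.31) were all under 1 FPKM. Sf3b6, the small protein near the branch point adenosine, was the other subunit detected there, at 3.39. Sf3a3 had the widest range of the class, from 0 in cell 14 over a median of 1.14 to 7.33 in cell 5, and Sf3a1 the lowest median, 0.14, with 5 cells above 1. Sf3a1 and Sf3a3 were the members of SF3a in the table. Exons of Sf3b2, Sf3b3 and Sf3b4 overlap other genes, and 49.3% of the 50-base words of Sf3b4 occur in other genes. The values of these SF3b genes, also in cell 15, are therefore uncertain.

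U2AF is a pair of proteins in which U2af2 binds the pyrimidine tract and U2af1 the AG at the 3′ splice site, and U2af1l4 is a relative of U2af1. U2af1 ran from 0.72 in cell 6 over a median of 3.48 to 8.06 in cell 15, and U2af2 from 0 in cell 15 over 1.47 to 5.89 in cell 8. In 12 cells U2af1 was the higher of the pair, and in cells 2, 7 and 8 U2af2 was. U2af1l4 had the widest range, from 0 in cells 9 and 13 over a median of 3.09 to 8.91 in cell 6. The pairwise Spearman correlations of the 3 genes over the 15 cells lay between -0.35 and -0.21. Such values are common among pairs of all genes detected in 3 or more cells. Of those, 9.74% lay between -0.3 and -0.2 and 6.76% between -0.4 and -0.3, so the 3 values do not set these genes apart. Their values are uncertain: 59.4% of the 50-base words of U2af1 and 24.7% of those of U2af2 occur in other genes, the leading one for each a processed pseudogene, and 97.2% of those of U2af1l4 occur in Gm49396, a coding gene that overlaps it on the same strand.

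The Prpf class, named for yeast genes of pre-mRNA processing, was the lowest at 1.99 ± 0.61 over cells, between 0.97 in cell 10 and 3.35 in cell 13. None of the 13 genes was detected in all 15 cells, against 12.1% of all rows. In 8 or more cells 4 of the 13 were detected, against 46.8% of all rows. The median of the gene means was 1.74 for the class, near the 1.89 of all rows, so the class was low beside the other classes rather than beside the table. Its transcripts are the longest of the classes, with a class median of 4065 nt, but the class was also lowest with the length multiplied back, at a median of 1.65 against 2.93 for the U2AF genes and 5.44 or more for the others.

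Prpf4b, a kinase that acts on spliceosomal proteins, had the highest median, 3.96, and ran from 0.12 in cell 7 to 5.31 in cell 9. It was detected in every cell but 5 and 7, and it is uncertain because its exons overlap a gene on the opposite strand. Prpf6, a bridging protein of the tri-snRNP, had the widest range, from 0 in cell 9 over a median of 2.04 to 7.95 in cell 6. Prpf40b, a relative of a yeast U1 protein, had the lowest median of all members, 0, and was detected in cells 4, 6 and 11, with 3.81 in cell 11. That is 20% of the cells, with an exact Clopper-Pearson 95% interval of 4.33% to 48.1% that covers counting error over cells only.

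Prpf8, the large U5 protein at the centre of the spliceosome, was detected in 5 cells, with a highest value of 4.75 in cell 15. Prpf19, a ubiquitin ligase of the activated spliceosome, was also detected in 5, with 6.66 in cell 9. The tri-snRNP genes Prpf31 and Prpf3 showed a few high cells, Prpf31 at 7.15, 7.16 and 7.13 in cells 5, 12 and 13, and Prpf3 at 7.02, 6.04 and 6.92 in cells 2, 12 and 13. In the other cells Prpf31 reached at most 4.61 and Prpf3 at most 1.81. Exons of Prpf31 overlap a gene on the opposite strand, so its values are uncertain. These 4 genes were picked after their values were seen and do not stand for their complexes; Prpf6, also of the tri-snRNP, was detected in 11 cells.

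SR proteins carry stretches of arginine and serine and mostly favour the use of the exons they bind. The class averaged 4.62 ± 0.56 over cells, between 3.39 in cell 7 and 5.45 in cell 5. Srsf5, Srsf3, Srsf11 and Srsf7 were detected in all 15 cells and 8 of the 10 genes in 8 or more. Srsf5 had the highest median and was also the steadiest of these 4: it ran from 5.62 in cell 4 over 7.73 to 8.92 in cell 13. Srsf3, the smallest SR protein and one that shuttles to the cytoplasm, had a similar median of 7.67, with a low of 3.13 in cell 6 and a high of 10.22 in cell 13.

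Srsf2, a nuclear SR protein, had the widest range of its class, from 0 in cell 7 over a median of 4.79 to 9.83 in cell 5. It was at 7.96 or higher in cells 5, 8, 9, 13 and 14 and at 1.26 or lower in cells 4, 7 and 11. Srsf1, a founding member of the family, was detected in 8 cells with a median of 1.42, and Srsf9 in 7 cells. Srsf4 had the lowest median, 0.26, and was detected in cells 1, 2 and 9 only, with 4.29 in cell 9. Srsf1, Srsf2 and Srsf4 overlap exons of genes on the opposite strand, which makes their values uncertain.

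hnRNP proteins are the largest class and package the nascent transcript. They averaged 4.37 ± 0.51 over cells, between 3.14 in cell 2 and 5.11 in cell 9. Of the 20 genes 8 were detected in all 15 cells and 18 in 8 or more. Hnrnpa2b1, an RNA-binding protein that also takes part in mRNA transport, had the highest median, 8.89, and ran from 6.1 in cell 10 to 10.58 in cell 13. With the length multiplied back it ranked first of all 77 genes. Hnrnpk, which binds runs of cytosine, had the smallest SD of the 77 genes, with a low of 7.61 in cell 3, a median of 8.54 and a high of 10.34 in cell 13. It too is uncertain, as 34.5% of its 50-base words occur in other genes.

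Hnrnph1, which binds runs of guanine, had the widest range of the class, from 1.03 in cell 2 over a median of 7.46 to 10.98 in cell 15. Cells 2, 5 and 12 were the low ones, at 3.95 or less, and every other cell had 5.51 or more. Its close relatives Hnrnpf, Hnrnph2 and Hnrnph3 had medians of 5.94, 4.29 and 3.15. Hnrnpf and Hnrnph3 are uncertain, as their exons overlap genes on the opposite strand. Of the 50-base words of Hnrnpf, 49.0% also occur in other genes. Hnrnpul2 had the lowest median, 0.27, and was detected in 5 cells, highest at 3.97 in cell 6. Hnrnpa1, the classic partner of Hnrnpa2b1, had a median of 4.31 and is uncertain because annotated copies share 28.3% of its 50-base words. Hnrnpd, a regulator of mRNA decay, was detected in 8 cells with a median of 1.08, while its relative Hnrnpdl was detected in 14 with 5.94. Exons of Hnrnpul2 and Hnrnpd overlap other genes, so both are uncertain.

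Whether the genes vary together was described by Spearman correlations across the 15 cells, which share 1 library each, unknown depths and the common distribution of values. Over the 2926 pairs of the 77 genes the mean correlation was 0.0177, against 0.0016 over the 27561600 pairs formed by all rows with at least 3 detected cells. Of the splicing pairs 94, or 3.21%, were above 0.5, where the share over all pairs was 3.27%. Below -0.5 lay 72 pairs, or 2.46%, against 3.14% of all pairs. The pairs of splicing genes were thus spread nearly as those of all genes, and 53.1% of them were above 0. Without the uncertain genes the mean was 0.0057.

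**Figure D3:**
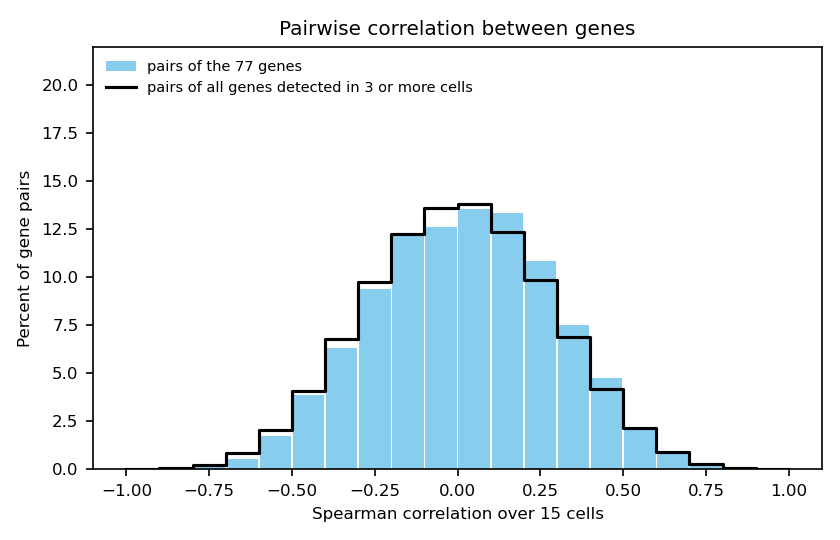
Distribution of Spearman correlations over 15 cells for the 2926 pairs of splicing genes (bars) and for the pairs of all genes detected in 3 or more cells (line), in percent of pairs. Bars and line nearly coincide, and 3.21% of the splicing pairs and 3.27% of all pairs lie above 0.5.

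The values were larger for the genes seen in every cell. Among genes detected in 8 or more cells the mean correlation was 0.018 for splicing genes and 0.0026 over the 3949 genes of the table, and among genes detected in all 15 cells it was 0.0354 for splicing genes and 0.0078 over 1023 genes. Leaving out each cell in turn kept the mean over the 77 genes between 0.0106, without cell 13, and 0.0209, without cell 3.

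Genes of one class were barely more alike than genes of different classes, with a mean of 0.0309 over the 465 pairs within a class and 0.0152 over the 2461 pairs between classes. The Sm and snRNP genes had the highest mean within a class, 0.136 over 66 pairs, and 0.132 without Snrpert. Above 0.5 lay 4 of the pairs, the uncertain pair Snrpert with Snrpe (0.76) among them, against 3.27% of all pairs. None lay below -0.5, against 3.14% of all pairs. Leaving out each cell in turn kept the mean of 0.136 between 0.099 and 0.164. The 20 hnRNP genes had 0.035, with 8 pairs above 0.5 and 8 below -0.5. The SF3a and SF3b genes had 0.034, the LSm genes 0.001, the SR genes -0.003 and the Prpf genes -0.017. The 3 U2AF genes had -0.272. Several of these values rested on single cells: without cell 2 the hnRNP value was 0.005, without cell 13 the LSm value was -0.028, without cell 7 the SR value was -0.02 and without cell 10 the Prpf value was -0.044. The SF3 value turned to -0.046 without cell 5, in which 3 of the 8 genes had their highest value.

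Within a ring or complex the means were also near 0. The mean correlation was 0.065 over the 21 pairs of the Sm ring, -0.02 over the 21 pairs of the U6 LSm ring and 0.022 over the 15 pairs of SF3b. Of the relatives compared, Hnrnpl and Hnrnpll had 0.47, Hnrnph1 and Hnrnph2 0.38, Srsf3 and Srsf7 0.29 and Hnrnpd and Hnrnpdl -0.14.

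Among the most alike pairs were Snrpert with Snrpe and Lsm7 with Snrpd2, both at 0.76, followed by Lsm7 with Snrpd1 at 0.75 and by Hnrnpa0 with Sf3b3 at 0.74. The most opposed was Prpf6 with U2af2 at -0.89: U2af2 was highest, at 5.89, in cell 8, where Prpf6 was 0.03, and Prpf6 was highest, at 7.95, in cell 6, where U2af2 was 0.13. These pairs come from the ends of 2926 values, and Snrpert, Snrpe, Lsm7, Sf3b3 and U2af2 are uncertain genes.

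Each gene was also set against the mean of the other 76 over the cells, and the same was done with the mean of all 77 for the other genes of the table. Among genes detected in 8 or more cells, 4 of 63 splicing genes, or 6.35%, were above 0.5, where the share among the 3886 other genes was 2.73%. Below 0 lay 19, or 30.2%, against 54.0%. The highest were Lsm7 (0.76), Snrpd1 (0.74), Hnrnpa2b1 (0.57), Snrpa (0.55) and Snrpa1 (0.49). Of these, Lsm7, Snrpa and Snrpa1 are uncertain genes. Snrpd1, Sm protein D1, ran from 1.83 in cell 14 over a median of 6.1 to 8.12 in cell 12. Snrpa, the U1 protein A, ran from 0.01 in cell 2 over 3.76 to 6.88 in cell 12.

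The genes that ran against the others were Sf3b1 (-0.49), Prpf38b (-0.41), Hnrnpul1 (-0.39), Hnrnph3 (-0.38) and U2af1l4 (-0.35). Prpf38b was highest, at 7.96, in cell 1, and lowest, at 0.25 and 0.56, in cells 12 and 13. Hnrnpul1 was highest in cell 10, at 5.78, the cell with the lowest mean of the 77 genes, and lowest in cell 13, at 0.07, the cell with the highest. Hnrnph3 likewise had its lowest value, 0.38, in cell 13.

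The mean over all 77 genes was 4.11 ± 0.41 (SD over 15 cells). It was highest in cells 13 (4.85), 12 (4.71) and 5 (4.56) and lowest in cell 10 (3.45), with 55 to 65 of the genes detected in a cell. The class means did not order the cells alike. Cell 5 led for the SR and SF3 classes, cell 9 for hnRNP, cell 12 for the Sm and LSm classes, cell 13 for Prpf and cell 4 for U2AF, and cell 10 was lowest for the Sm and Prpf classes only.

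**Figure D4:**
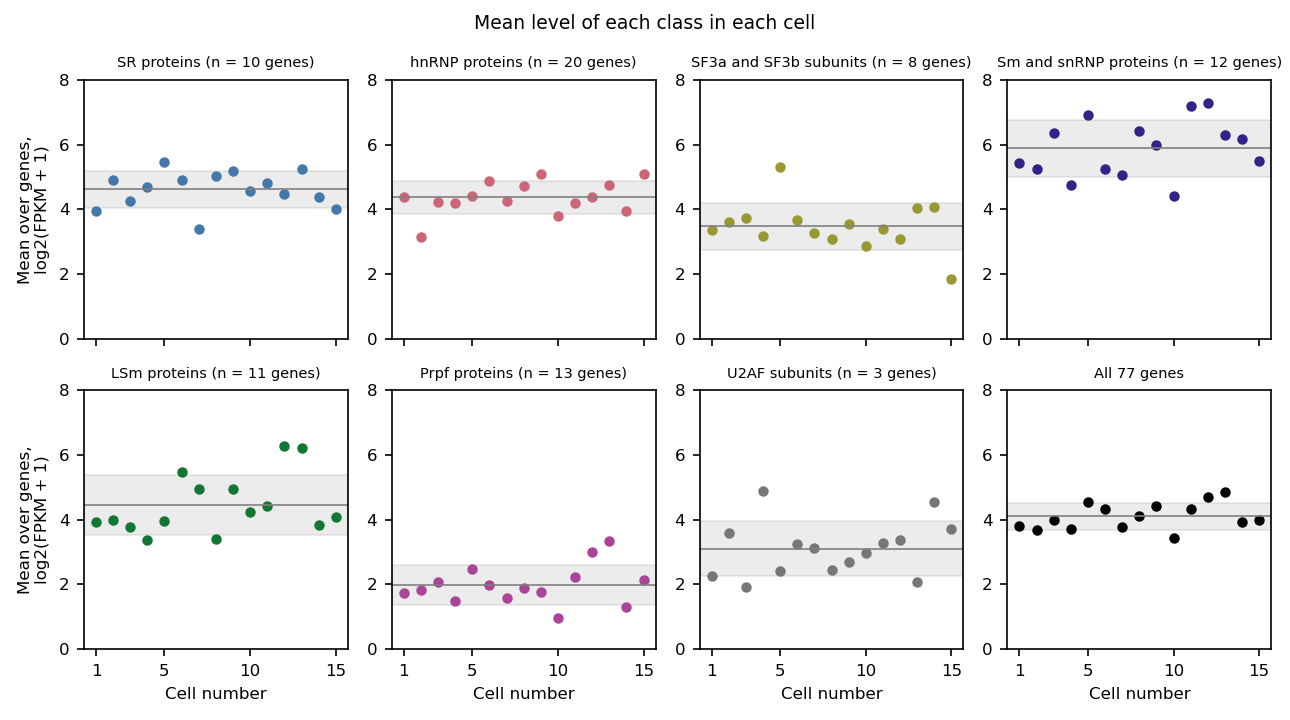
Mean level of the genes of each class in each of the 15 cells, and of all 77 genes (last panel), as log2(FPKM + 1), with the mean over cells (line) and 1 SD on either side (band). The order of the cells differs between the classes: cell 5 is highest for the SF3 genes at 5.3, cells 12 and 13 for the LSm genes at 6.28 and 6.22, and cell 4 for the U2AF genes at 4.89.

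Of the 21 pairs of class means, the Sm and snRNP class with the Prpf class had the highest correlation over cells, 0.74, and 0.69 without cells 12 and 13. The single gene pairs across these classes averaged 0.028. hnRNP with Prpf had 0.44, SR with SF3 0.42 and LSm with Prpf 0.42, and the last of these was 0.11 without cells 12 and 13. The U2AF mean was negatively correlated with each of the other 6 class means, from -0.33 with hnRNP to -0.05 with LSm. Without cell 13 its value with LSm was 0.08.

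The 3 cells with the highest splicing means were also the 3 lowest in stromal progenitor markers. By the median over the 77 genes in place of the mean, the highest cells were 12 (5.00), 9 (4.98), 5 (4.98) and 13 (4.86). The Tomato+ cells as a whole carried these markers: 10 of the 12 listed had rows, all 10 were detected in 8 or more cells and 7 in all 15, and Col3a1 had a median of 11.49. The mean of the 10 markers was 5.27 in cell 13, 6.55 in cell 12 and 7.06 in cell 5, against 7.69 to 9.7 in the other cells. In cell 13 the lowest values of all cells were those of the stromal markers Col1a1 (2), Serping1 (7.12), Pdgfra (0.2), Col1a2 (5.8), Mmp2 (0.73) and Lum (5.29), while Pdgfrb (7.66) and Vim (12.02) had their highest value there. That cell had the cell cycle markers Ube2c at 11.75, Prc1 at 11.37, Cdk1 at 11.34, Cenpf at 10.3 and Birc5 at 10.04. Tyms was 5.55 there, under its high of 7.05 in cell 12, and Pcna was 4.39, under its median of 5.4. Of the endothelial markers, cell 13 had Esam at 10.9 and Tek at 0.06. Its mural markers were uneven, with Higd1b at 10.68, Kcnj8 at 9.43, Rgs5 at 6.9, Abcc9 at 1.68 and Acta2 at 0.45. Cell 5 had all 5 mural markers, Higd1b at 10.98, Acta2 at 10.23, Rgs5 at 10.18, Kcnj8 at 6.53 and Abcc9 at 5.68. Esam was at 7.83 in cell 5 and Tek at 0.15. In cell 12 the adipocyte markers were also uneven, with Pnpla2 at 7.5, Fasn at 3.18 and Cfd at 0.64. Among its stromal markers Cd34 was the lowest of all cells at 2.05, and Pdgfra, at 4.09, was above its median of 3.98. The summed level of the stromal list ran from 52.72 to 96.98 over cells. The cell cycle list had 7 of its 12 genes in the table, and their summed level was 64.74 in cell 13, with a median of 7.79 over cells. The mural list had 5 of 8, with 43.6 in cell 5 and a median of 6.44, and Higd1b, Rgs5 and Kcnj8 were at 0 in cells 8 and 9. Of 6 endothelial genes 2 had rows, of 6 immune genes 1, of 6 mature adipocyte genes 3 and of 4 mesothelial genes 0, and none of these 6 was detected in 8 or more cells.

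Over the 15 cells the mean of the 77 genes and that of the stromal markers had a Spearman correlation of -0.63 and a Pearson correlation of -0.72. Without cells 12 and 13, the 2 farthest from the median of the markers, these were -0.43 and -0.41, and without cells 5, 12 and 13 they were -0.27 and -0.12. The relation was thus weaker without these cells. Cells 5, 12 and 13 were chosen after the values were seen, as extreme on both measures, so leaving them out was bound to weaken it. With the median over the 77 genes the Spearman correlation was -0.47, and without uncertain genes it was -0.48. Gene by gene the median correlation with the markers was -0.136 over the 63 splicing genes detected in 8 or more cells, with 68.3% of them negative, and 0.018 over the other genes, with 47.8% negative. With the cell cycle markers the splicing mean had a Spearman correlation of 0.32, which was 0.02 without cells 5, 12 and 13, and with the mural markers it had 0.26, which was -0.28 without them. What these markers contribute to the splicing means was not tested.

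**Figure D5:**
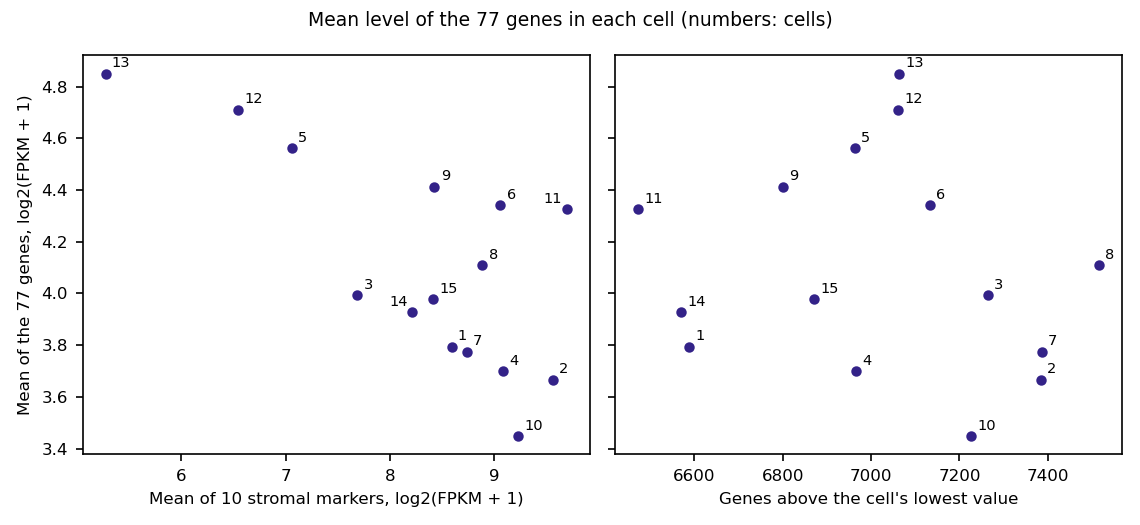
Mean level of the 77 splicing genes in each cell, as log2(FPKM + 1), against the mean of the 10 stromal markers on the same scale (left) and the number of genes above the cell's lowest value (right); numbers name the cells. Cells 5, 12 and 13 lie at the upper left of the left panel, and the right panel shows no such separation of these 3.

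The number of genes above a cell's lowest value, the measure of breadth that the common distribution leaves, ran from 6472 in cell 11 to 7516 in cell 8. Its Spearman correlation with the mean of the 77 genes was -0.21, and -0.28 without cells 5, 12 and 13. The genes were unevenly spread over the cells in which they had their highest value, as were the rows of the table. Cells 5, 6 and 12 each held 9 of the 77 genes, or 11.7%, against 9.42%, 8.76% and 6.2% of all rows. Cell 15 held 8, or 10.4%, against 9.79%, cell 13 held 7, or 9.09%, against 7.45%, and cell 9 also 7, against 6.37%. Cell 10 held 6, or 7.79%, against 10.4%, and cells 8 and 11 held 5 each, or 6.49%, against 4.08% and 5.16%. Cells 1, 2, 3, 4, 7 and 14 held 2 each, or 2.6%, against 4.18% to 7.27% of all rows.

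A list of 132 other splicing genes, with kinases, helicases, export factors and regulators outside the 7 name classes, had 120 rows. Of these 23, or 19.2%, were detected in all 15 cells and 86, or 71.7%, in 8 or more, which is between the shares of the 77 genes and of all rows. Their median of gene means was 3.25 and their mean pairwise correlation 0.016. The highest by median were Rbm39 (9.11), an RNA-binding protein related to U2AF, the SR protein kinase gene Clk1 (8.3), Magoh (7.69), a core protein of the exon junction complex, and Cwc15 and Rbm25 (both 7.35). Their mean over cells had a Spearman correlation of 0.11 with the mean of the 77 genes. Among the listed genes detected in 8 or more cells, those most correlated with the 77 were Wbp11 (0.59), the SF3b protein gene Phf5a (0.55), the U2 helicase gene Ddx46 (0.51), Mbnl2 (0.46) and Elavl1 (0.45).

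The promoters of the splicing genes were searched for 4 motifs on both strands, in RefSeq windows of 300 bases around the transcription start on GRCm38.p6. Windows matched 64 of the 77 genes, and a gene with several windows was counted when any of them held the motif. The ETS motif CCGGAAGT was found for 18.8% of these genes, against 10.4% of the 6566 genes of the table with a window and 4.31% of all 27025 genes with a window. The GC box GGGCGG was found for 70.3% of the splicing genes, 71.1% of the table and 38.2% of all genes. The CCAAT motif was found for 51.6%, 43.0% and 41.1%, and TATAAA for 9.38%, 8.96% and 15.7% of these same sets. A match is a run of letters and says nothing of binding.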

How the data were processed

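The sources used here are 1 table of the 15 cells and the labels. Per the labels' protocols, Nextera XT libraries were built on cDNA of the SMART-Seq v4 3′ DE kit. TopHat2, Cufflinks and the build GRCm38 are named in the submitters' processing notes, without versions. The authors deposited FPKM values on a log2 scale, which was inferred from the values: they end at 13.69, and read as log2(FPKM + 1) they sum to 592948 FPKM per cell on average. Sorted columns were the same to within 0.0354 above 0.2, so the deposited values had been brought to one distribution. No further transformation was made. A further 18 unnamed columns held no values. The 8446 rows hold 8441 distinct identifiers.

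Computed here were detection shares, ranges, class means and Spearman correlations, with Python 3.11.15, pandas 2.3.3 and scipy 1.17.1. The code was checked on simulated data. No test was run, since 1 group of cells with no named animal is 1 sample. The members and gene lists were chosen with earlier results of these data known. Named by rule were, in each class, the members with the highest and the lowest median and the widest range among those detected in 8 or more cells, then the 5 members most and the 5 least correlated with the others, and the 5 highest and 5 most correlated of the other splicing genes; further members are named to account for their class, after their values were seen. A gene is called uncertain where at least 20% of its 50-base words occur in another gene of GENCODE M21 or its exons overlap another gene (34 of 77). Alternatives were other thresholds, a pseudocount of 0.1, Pearson correlation, length multiplied back, and leaving out cells or uncertain members. Protein sequences were not analysed here. The Snrpe comparison used GENCODE M21 transcripts. Values of 1 member and the compared sequences are not reported here, though that member is in every count and mean.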

Additional observations from a re-analysis of the deposited data

How the results depend on the processing

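Of 122 alternatives 25 moved a value by more than its spread (for counts, by more than 1.5 times). For levels the spread was the SD over cells. For mean pairwise correlations it was the range of the values found when each cell was left out in turn. Of the 63 alternatives on correlations 10 had the opposite sign: 4 for SR, 3 for LSm, 2 for SF3 and 1 for Prpf, all classes whose mean correlation was near 0. Detection in all 15 cells held for 22 genes at 1 FPKM and for 11 at 5 FPKM. Among the 43 genes that are not uncertain, 14 were detected in all 15 cells and 33 in 8 or more; fewer genes were counted there. The median level was 5.32 with the length multiplied back and 4.48 without uncertain genes. Multiplying the length back raised the class means to 5.91 (SR), 6.01 (hnRNP), 4.73 (SF3) and 3.22 (Prpf). With log2(FPKM + 0.1) the SR mean was 4.05 and the Prpf mean 0.66, and the SR mean without uncertain genes was 5.46. The span between the highest and the lowest cell was 1.4 for the mean of the 77 genes (cells 13 and 10) and 1.99 for their median (cells 12 and 4).

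The mean pairwise correlation of 0.0177 was 0.03 by Pearson, 0.0354 for genes in all 15 cells and 0.0057 without uncertain genes. For genes in all 15 cells the class values were 0.138 (SR) and 0.102 (hnRNP). SF3 and LSm had only 2 such genes each, so their values of -0.286 and -0.139 are those of a single gene pair and not class means. Prpf and U2AF had no such gene. Without uncertain genes the class values were -0.069 (SF3), 0.218 (Sm and snRNP) and -0.068 (LSm), and U2AF had none left. The Prpf value was -0.064 for genes in 8 or more cells and 0.001 without cells 1, 11 and 14. The other changes of sign were the SR values of 0.007 for genes in 8 or more cells, 0.009 without cells 1, 11 and 14 and 0.004 given the breadth of the cell, and the LSm value of -0.028 without cell 13. The correlation with the stromal markers was -0.27 without cells 5, 12 and 13, a choice made after seeing the data. The cause of these shifts was not tested. The depth of the libraries is unknown, so it cannot be said which undetected genes more reads would show. No paired analysis was possible because the cells form 1 group.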
